A study of Homo sapiens with 32 samples.

Results

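Coagulation and fibrinolysis factors are plasma proteins that build and dissolve fibrin clots, and most of them are made by hepatocytes. The 10 genes listed for them were prothrombin (F2), factors V, VII, X and XII (F5, F7, F10, F12), plasminogen (PLG), antithrombin (SERPINC1), protein S (PROS1), protein C (PROC) and kininogen 1 (KNG1). They were listed by name, and 8 of the 10 had a row among the 13133 genes of the table. F2 and F10 are not analysed here. Of the 8 genes, 7 reached a mean of 5 normalized reads over the 32 libraries and were tested among 9324 genes. F7, with a mean of 0.495, did not reach it and is given by its values alone.

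The study used HepG2, an established cell line grown from a human liver carcinoma, so all groups share 1 line. Cells received medium only (NoNP, concentration 0) or silver nanoparticles at 1.2 ug/mL whose surface carried citrate (CiT), polyethylene glycol (PEG) or branched polyethylenimine (bPEI). They were lysed 6, 12 or 24 h later, which gave 12 groups of exposure and time. There were 3 libraries in each of 8 groups and 2 in each of the other 4, which were PEG and citrate at 6 h and NoNP and bPEI at 24 h. No label says whether the libraries of a group are separate cultures. The p-values therefore measure the spread between these libraries, which may be technical. Levels were read by TempO-Seq, an assay in which detector oligonucleotides ligate on their target RNA and are then amplified and sequenced. A value is the number of reads of a gene after scaling between libraries (normalized reads). It compares libraries for 1 gene and does not rank genes, because each gene is read by its own probes.

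Fibrin forms at the end of a chain of proteases, each made as an inactive zymogen and cut by the one before it. The contact system of factor XII and kininogen starts one arm of the chain, factor VII with tissue factor starts the other, and factor V speeds the cut of prothrombin to thrombin. Antithrombin blocks thrombin and the proteases above it, and activated protein C with its cofactor protein S inactivates factor V. Plasmin, made from plasminogen, digests the clot. Factors VII and X, prothrombin, protein C and protein S need vitamin K for the carboxylation that lets them bind membranes. Hepatocytes transcribe most of these genes under liver-enriched factors such as HNF1, HNF4 and C/EBP.

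The sequence before the transcription start is shown for 4 genes whose level changed with time, KNG1, F12, PROC and PLG. It was taken before the first RefSeq start (GRCh38.p14) and read 5′ to 3′ on the gene's strand. Where it ran into the gene of GENCODE 29 it was cut at that gene's start. The PLG window ends at 160702192, short of the GENCODE start at 160702238. Capitals mark a match to a motif searched on both strands. No printed window for F12, PROC or PLG held a match, and the printed KNG1 window held TTGCAAAA.
KNG1, chr3:186717109-186717275, plus strand: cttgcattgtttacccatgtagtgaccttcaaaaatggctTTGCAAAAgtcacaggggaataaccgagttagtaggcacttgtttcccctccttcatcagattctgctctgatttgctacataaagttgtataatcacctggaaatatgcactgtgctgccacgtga
F12, chr5:177409577-177409814, minus strand: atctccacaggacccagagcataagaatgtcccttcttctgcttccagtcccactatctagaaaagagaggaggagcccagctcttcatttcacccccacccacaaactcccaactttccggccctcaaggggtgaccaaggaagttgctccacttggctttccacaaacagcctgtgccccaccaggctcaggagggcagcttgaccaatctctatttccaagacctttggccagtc
PROC, chr2:127418177-127418426, plus strand: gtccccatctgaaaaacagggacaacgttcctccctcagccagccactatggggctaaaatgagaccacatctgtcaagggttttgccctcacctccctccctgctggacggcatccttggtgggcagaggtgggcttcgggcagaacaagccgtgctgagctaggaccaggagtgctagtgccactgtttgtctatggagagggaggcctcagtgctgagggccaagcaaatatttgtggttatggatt
PLG, chr6:160701943-160702192, plus strand: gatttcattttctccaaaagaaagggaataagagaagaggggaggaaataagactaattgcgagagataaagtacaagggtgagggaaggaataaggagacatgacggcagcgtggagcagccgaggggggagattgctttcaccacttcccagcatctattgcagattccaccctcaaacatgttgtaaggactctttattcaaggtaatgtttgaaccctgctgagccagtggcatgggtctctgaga
The motifs were GTTAAT and GTTAAC for HNF1, CAAAGTNCA for HNF4 and TTGCNNAA for C/EBP. They were searched in the 250 bases before each RefSeq start, which 7 of the 8 genes had in the table. SERPINC1 was not matched. In 35116 windows of the table, GTTAAT occurred in 6.23%, GTTAAC in 2.31%, CAAAGTNCA in 0.94% and TTGCNNAA in 9.05%. No matches overlapped. KNG1 held TTGCAAAA 210 bases and GTTAAC 62 bases before its RefSeq start, the latter inside the GENCODE gene and so not printed above. The other matches lay before second starts. PROC held TTGCCCAA 220 bases before one, inside the GENCODE gene. PLG held ATTAAC, which is GTTAAT on the other strand, 46 bases before its second start. That PLG match lies after the printed window and before the GENCODE start of the gene. These are letters found in a window and not binding sites.

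In GENCODE 29 (GRCh38) KNG1 lies at chr3:186717276-186744410, F12 at chr5:177402140-177409576 and F5 at chr1:169514166-169586588. F7 lies at chr13:113105788-113120681 and SERPINC1 at chr1:173903804-173917378. PROC lies at chr2:127418427-127429246, PROS1 at chr3:93873033-93980003 and PLG at chr6:160702238-160753315. All 8 are protein coding. F12 overlaps GRK6 on the opposite strand, KNG1 overlaps an antisense RNA and PROC overlaps a microRNA gene. PLG and PROS1 have closely related copies in the genome. Neither probe positions nor the counting build is named by the labels or files, so values of these 5 genes carry the uncertainty of shared reads.

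Library depth ran from 1313855 to 6735072 reads with a median of 3373855, and a count of 0 in a library allows 1.38 to 7.15 normalized reads. Reads over a whole group ran from 6 to 152 for KNG1, 14 to 98 for F12, 10 to 111 for PLG, 10 to 70 for F5, 50 to 283 for PROS1, 523 to 6548 for SERPINC1 and 2616 to 12782 for PROC. All 10 hepatocyte markers of the list were measured, and ALB, the albumin gene, ran from 89911 to 268230 normalized reads. Their sum ran from 282172 to 422457 at 6 h, from 187919 to 326901 at 12 h and from 167893 to 276798 at 24 h. In each exposure every 24 h sum was below every 6 h sum, and the part of this in the results was not tested. Genes with many reads weigh most in the sum, with a mean of 176339 for ALB and 59.9 for HNF4A. It does not show that each of the 10 markers fell. Among the stellate and fibroblast markers, COL1A1 stayed between 0 and 8.83 and COL3A1 between 0 and 3.502, while PDGFRB ran from 45.5 to 411 and ACTA2 from 26.1 to 324. The sum of these 4 was 131 to 243 at 6 h, 309 to 440.4 at 12 h and 164 to 611 at 24 h, and its part was likewise not tested. Of 5 endothelial markers 1 was measured (PECAM1, 0 to 27.1), of 4 leukocyte markers 2 (CD68, 33.9 to 216; CD14, 0 to 16.2), and the 4 platelet markers are not analysed here. In bulk lysates, fewer cells and less RNA per cell cannot be told apart.

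The 2 NoNP libraries at 24 h stood apart from each other. The mean variance within that group was 2.56 times the mean over the groups. Between replicates A and B there, SERPINC1 held 619 and 298 normalized reads, PROC 1693 and 3395, F12 0 and 30.4, PROS1 69.0 and 17.4, and KNG1 14.4 and 2.17. Replicate B of this group and replicate B of bPEI at 6 h stood apart from the rest in an earlier analysis of these data, and values without them are given where leaving them out changes a call or moves a described value much.

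The first question was how the genes changed with time in culture. In the mean over the 4 exposures, 5 of the 7 tested genes fell from 6 to 12 h and none rose. The 5 were F12, KNG1, SERPINC1, PROC and PLG. From 12 to 24 h KNG1 and SERPINC1 fell while PLG and PROC rose. From 6 to 24 h F12, KNG1, SERPINC1 and PROC fell. F5 and PROS1 passed the test in none of these comparisons. A gene was called at an adjusted p under 0.05 in limma, adjusted over all 9324 genes.

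Many genes changed over these intervals. Of all tested genes 43.5% were called from 6 to 12 h, 38.4% from 12 to 24 h and 39.0% from 6 to 24 h. Falls alone made up 21.3% of all tested genes from 6 to 12 h and 20.4% from 6 to 24 h. The median log2 difference of the 7 genes was -1.14 from 6 to 12 h against 0.03 for all genes, 0.28 against -0.06 from 12 to 24 h, and -0.52 against -0.03 from 6 to 24 h. The plot of every library shows the 8 genes by exposure and time.

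**Figure D1:**
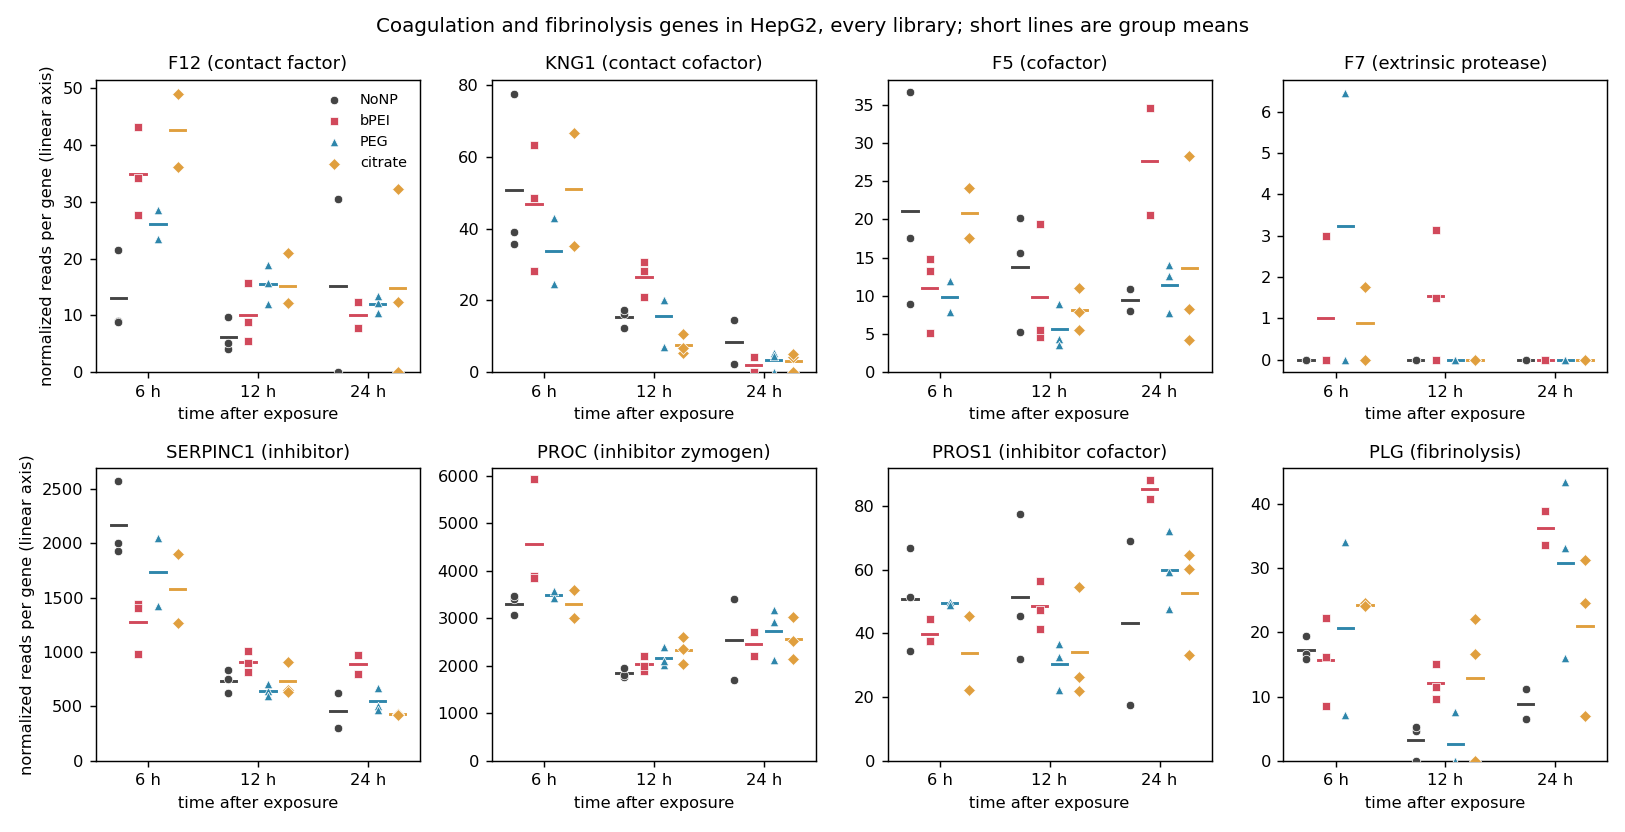
Normalized reads (linear axis, different for each gene) of the 8 genes in each of the 32 libraries, by time in h and by exposure. Points are libraries and short lines are group means. KNG1, SERPINC1 and PROC sit highest at 6 h, PLG is lowest at 12 h, and F7 is at 0 in nearly all libraries.

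Among the contact factors, KNG1 fell at both steps. KNG1 encodes the kininogens, which release kinins such as bradykinin. Their high molecular weight form carries prekallikrein and factor XI to surfaces. At 6 h replicates A, B and C held 35.8, 77.6 and 39.0 normalized reads in NoNP and 28.3, 63.2 and 48.6 in bPEI, and replicates A and C held 42.9 and 24.4 in PEG and 66.5 and 35.2 in citrate. At 12 h the values were 16.2, 17.4 and 12.3 in NoNP, 28.1, 20.9 and 30.7 in bPEI, 20.1, 7.07 and 20.01 in PEG and 5.46, 10.5 and 6.62 in citrate. At 24 h they were 14.4 and 2.17 in NoNP, 0 and 4.12 in bPEI, 0, 5.24 and 4.45 in PEG and 4.16, 0 and 4.92 in citrate. Every 24 h library was below every 6 h library of the same exposure, in all 4 exposures. The share of all tested genes without overlap was not counted, here or for the genes below. The 24 h groups rest on 6 to 11 reads each, so the size of the fall is loosely set. In the mean over exposures KNG1 fell by 1.51 on the log2 scale from 6 to 12 h (SE 0.41, adjusted p = 0.00372), by 2.11 from 12 to 24 h (SE 0.41, adjusted p = 0.00013) and by 3.62 from 6 to 24 h (SE 0.44, adjusted p = 4.04e-08). Log2 differences here are of log2(normalized reads + 1), averaged over libraries. For low genes they can differ in size from ratios of group means. Where a library is at 0 they can also differ in sign.

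F12, which encodes the zymogen that is cut to the first protease of the contact pathway, fell from 6 h in the mean over the exposures. At 6 h it held 8.95, 21.5 and 8.78 normalized reads in NoNP, 43.1, 34.2 and 27.6 in bPEI, 28.6 and 23.5 in PEG and 49.0 and 36.2 in citrate. At 12 h it held 4.06, 5.05 and 9.63 in NoNP, 8.76, 5.46 and 15.7 in bPEI, 11.9, 15.8 and 18.8 in PEG and 21.0, 12.2 and 12.1 in citrate. At 24 h it held 0 and 30.4 in NoNP, 7.79 and 12.4 in bPEI, 10.3, 12.2 and 13.3 in PEG and 0, 32.2 and 12.3 in citrate. In each coating every later library was below every 6 h library, whereas the NoNP libraries overlapped. The F test of the interaction of exposure and time did not pass for F12 (adjusted p = 0.963). The mean over exposures fell by 1.23 from 6 to 12 h (SE 0.49, adjusted p = 0.0412) and by 1.62 from 6 to 24 h (SE 0.52, adjusted p = 0.0122), and changed by -0.39 from 12 to 24 h (SE 0.49, adjusted p = 0.554). Both calls for F12 were weak. The first was lost in 16 of 41 alternatives, with adjusted p from 0.00235 to 0.0799. The second was lost with edgeR (adjusted p = 0.0666) and without NoNP replicate A at 24 h (-0.999, adjusted p = 0.0841).

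F7 and F5 stand for the tissue factor arm and the common step. F7, the protease that works with tissue factor, was at 0 in 27 of 32 libraries, and 28 reads were counted for it in all. Replicate C of PEG at 6 h held the highest value, 6.45 normalized reads. All 8 NoNP libraries and all 10 libraries at 24 h were at 0, which at these depths does not show that the gene was off. F5, the cofactor that speeds thrombin formation, ran from 5.13 to 36.6 with a median of 14.0 at 6 h, from 3.53 to 20.2 with a median of 6.66 at 12 h, and from 4.20 to 34.6 with a median of 11.8 at 24 h. Its mean was lower at 12 h than at 6 h in 4 of 4 exposures, and the libraries overlapped in 3 of them. The mean over exposures differed by -0.73 from 6 to 12 h (SE 0.38, adjusted p = 0.121) and by 0.65 from 12 to 24 h (SE 0.38, adjusted p = 0.182).

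SERPINC1, the gene of antithrombin, fell at both steps in the mean over the exposures. At 6 h it held 2573, 1928 and 1997 normalized reads in NoNP, 1437, 981 and 1402 in bPEI, 2047 and 1420.4 in PEG and 1897 and 1265 in citrate. At 12 h it held 748, 622 and 833 in NoNP, 814, 896 and 1008 in bPEI, 638, 592 and 702 in PEG and 649, 912 and 628 in citrate. At 24 h it held 619 and 298 in NoNP, 799 and 974 in bPEI, 499, 469.9 and 668 in PEG and 431, 427 and 422 in citrate. Every 24 h library was below every 6 h library of its exposure in all 4 exposures, and at 12 h only bPEI still overlapped its 6 h values. From 12 to 24 h the libraries of bPEI and of PEG overlapped, and the bPEI mean went from 906 to 887. Over the exposures SERPINC1 fell by 1.14 from 6 to 12 h (SE 0.12, adjusted p = 6.09e-09), by 0.45 from 12 to 24 h (SE 0.12, adjusted p = 0.00388) and by 1.59 from 6 to 24 h (SE 0.13, adjusted p = 7.31e-12). The last is a 3.002-fold fall.

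PROC, the zymogen of the protease that inactivates factor V, fell and then came back in part. At 6 h it held 3409, 3057 and 3458 normalized reads in NoNP, 3893, 5939 and 3849 in bPEI, 3424 and 3569 in PEG and 2999.9 and 3585 in citrate. At 12 h it held 1761, 1803 and 1953 in NoNP, 1890.4, 2004 and 2196 in bPEI, 2008, 2388 and 2109.6 in PEG and 2038, 2342 and 2599.6 in citrate. At 24 h it held 1693 and 3395 in NoNP, 2215 and 2715 in bPEI, 2112, 2914 and 3177 in PEG and 2139.7, 2528 and 3026 in citrate. Every 12 h library was below every 6 h library of the same exposure, in all 4 exposures. PROC fell by 0.79 from 6 to 12 h (SE 0.11, adjusted p = 3.95e-07). It was still lower at 24 h than at 6 h, a difference of -0.52 (SE 0.11, adjusted p = 0.000418). The rise of 0.28 from 12 to 24 h (SE 0.11, adjusted p = 0.0403) was lost in 15 of 42 alternatives, among them leaving out NoNP replicate B at 24 h (0.15, adjusted p = 0.239).

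PROS1, the cofactor of activated protein C, did not share this course. It ran from 22.3 to 66.8 normalized reads with a median of 45.0 at 6 h, from 22.1 to 77.5 with a median of 39.0 at 12 h, and from 17.4 to 88.3 with a median of 62.4 at 24 h. The lowest of the 24 h values was NoNP replicate B, at 17.4, while replicate A held 69.0. From 12 to 24 h the difference was 0.49 (SE 0.24, adjusted p = 0.102), which became 0.73 (adjusted p = 0.0116) without NoNP replicate B at 24 h and 0.25 (adjusted p = 0.392) without replicate A. From 6 to 12 h it was -0.12 (SE 0.24, adjusted p = 0.715).

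PLG, the zymogen of the clot-dissolving protease plasmin, dipped at 12 h. At 6 h it held 16.6, 19.4 and 15.9 normalized reads in NoNP, 16.2, 8.55 and 22.2 in bPEI, 7.15 and 34.1 in PEG and 24.5 and 24.1 in citrate. At 12 h it held 4.64, 0 and 5.25 in NoNP, 9.68, 11.4 and 15.0 in bPEI, 0, 7.61 and 0 in PEG and 0, 16.6 and 22.1 in citrate. At 24 h it held 11.2 and 6.52 in NoNP, 39.0 and 33.6 in bPEI, 16.1, 33.2 and 43.4 in PEG and 31.2, 7.003 and 24.6 in citrate. The 4 values of 0 were all at 12 h. PLG fell by 1.89 from 6 to 12 h (SE 0.50, adjusted p = 0.00261) and rose by 2.07 from 12 to 24 h (SE 0.50, adjusted p = 0.00131), a 4.19-fold rise. From 6 to 12 h the libraries of bPEI and of PEG overlapped, and from 12 to 24 h those of citrate. Over the alternatives the rise ran from 1.28 to 2.63 on the log2 scale. NoNP and PEG at 12 h rest on 14 reads each, so the size of the rise is loosely set. Over the whole interval the difference was 0.18 (SE 0.53, adjusted p = 0.82).

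**Figure D2:**
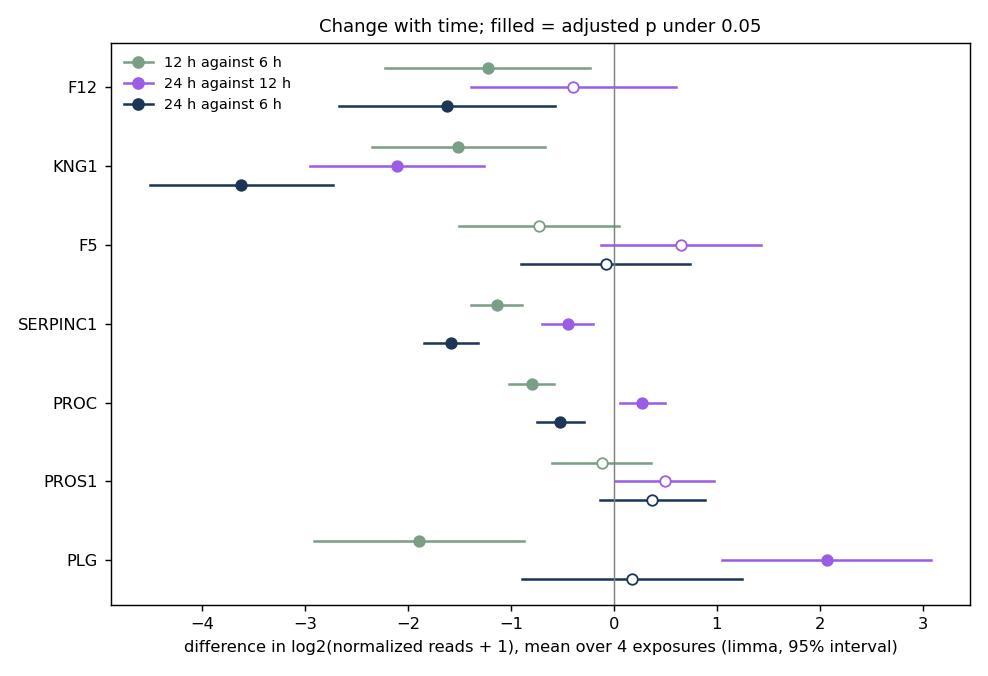
Differences between times of the 7 tested genes in log2(normalized reads + 1), averaged over the 4 exposures, with 95% intervals from limma. Filled points have an adjusted p under 0.05. KNG1 reaches -3.62 from 6 to 24 h, and PLG goes from -1.89 to 2.07 between the first and the second step.

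The unexposed cells alone gave fewer calls. In NoNP 2 of 7 genes were called from 6 to 12 h, where 11.8% of all tested genes were called, 1 of 7 from 12 to 24 h (18.3%) and 2 of 7 from 6 to 24 h (18.6%), all of them lower. SERPINC1 fell by 1.56 (SE 0.23, adjusted p = 1.55e-05), then by 0.76 (SE 0.26, adjusted p = 0.0358) and over the whole interval by 2.32 (SE 0.26, adjusted p = 2.78e-08), from 2166 ± 354 (SD, n = 3) to 459 ± 227 (SD, n = 2) normalized reads. PROC fell by 0.85 from 6 to 12 h (SE 0.20, adjusted p = 0.0049). KNG1 fell by 2.80 from 6 to 24 h (SE 0.87, adjusted p = 0.0212). Some calls that use the 24 h controls depended on which of the 2 libraries was kept and on other choices. Over 43 alternatives, SERPINC1 from 12 to 24 h was lost in 8 and KNG1 from 6 to 24 h in 7. Without replicate B, SERPINC1 from 12 to 24 h was -0.23 (adjusted p = 0.712) and KNG1 from 6 to 24 h was -1.66 (adjusted p = 0.298), while SERPINC1 from 6 to 24 h stayed called in 43 of 43 alternatives. PLG from 6 to 12 h was -2.48 (SE 0.94, adjusted p = 0.0848), with 16.6, 19.4 and 15.9 normalized reads against 4.64, 0 and 5.25.

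The second question was whether each coating changed these genes against NoNP of the same time. The 3 coatings share their controls at each time. Of 63 tests, 7 genes in 9 comparisons, 1 passed, SERPINC1 in bPEI at 24 h, and 5 had an unadjusted p under 0.05. The count was 0 of 7 in bPEI (2.01% of all tested genes called), PEG (0.0215%) and citrate (0.279%) at 6 h. It was 0 of 7 in bPEI (0.0965%), PEG (0.654%) and citrate (6.12%) at 12 h. At 24 h it was 1 of 7 in bPEI (4.55%) and 0 of 7 in PEG (2.83%) and citrate (4.20%). With edgeR 1 of the 63 passed as well.

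In bPEI SERPINC1 lay below NoNP at 6 h, without passing the test, and above it at 24 h. At 6 h the bPEI libraries (1437, 981 and 1402 normalized reads) were all below the NoNP libraries (2573, 1928 and 1997), a difference of -0.77 (SE 0.23, adjusted p = 0.0647). This passed in 5 of 43 alternatives, with adjusted p from 0.0185 to 0.407, and was -0.60 without bPEI replicate B (adjusted p = 0.407). The citrate libraries (1897 and 1265) were also below every NoNP library at 6 h (-0.47, SE 0.26, adjusted p = 0.517), and PEG (2047 and 1420.4) overlapped NoNP (-0.33, SE 0.26, adjusted p = 0.756). At 24 h the bPEI libraries (799 and 974) were both above NoNP (619 and 298), a difference of 1.04 (SE 0.28, adjusted p = 0.0278), or 2.05-fold, with a 95% interval of 0.46 to 1.61. This call was lost in 7 of 43 alternatives, with adjusted p from 0.000411 to 0.864 over all of them. Without NoNP replicate B at 24 h the difference was 0.51 (adjusted p = 0.448), and without bPEI replicate A or B it was 1.18 (adjusted p = 0.0657) or 0.89 (adjusted p = 0.264). At 24 h PEG differed from NoNP by 0.33 (SE 0.26, adjusted p = 0.58) and citrate by -0.01 (SE 0.26, adjusted p = 0.991).

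F12 was higher in the coatings than in NoNP at 6 h without passing the test. The 7 exposed libraries at 6 h ran from 23.5 to 49.0 normalized reads and the 3 NoNP libraries from 8.78 to 21.5, so they did not overlap. The NoNP group rests on 33 reads, and the share of all tested genes without such overlap was not counted. The difference was 1.45 in bPEI (SE 0.92, adjusted p = 0.405), 1.05 in PEG (SE 1.03, adjusted p = 0.811) and 1.73 in citrate (SE 1.03, adjusted p = 0.565). At 24 h the F12 group means were 10.1 in bPEI, 12.0 in PEG and 14.8 in citrate, below the 15.2 of NoNP. With NoNP replicate A at 0, the log2 differences there had the opposite sign. They were 0.95 in bPEI, 1.20 in PEG and 0.44 in citrate, and none passed. Averaged over times, F12 differed from NoNP by 0.99 in bPEI (SE 0.57, adjusted p = 0.434), 1.17 in PEG (SE 0.57, adjusted p = 0.265) and 1.12 in citrate (SE 0.57, adjusted p = 0.21). Without NoNP replicate B at 24 h, which held 30.4 normalized reads against 0 in replicate A, these became 1.82 (adjusted p = 0.0333), 1.99 (adjusted p = 0.0105) and 1.95 (adjusted p = 0.00773), all past the threshold. Without replicate A they were 0.16, 0.34 and 0.29, and none passed. Over all alternatives the citrate average had an adjusted p from 0.00569 to 0.794.

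No tested gene passed in the averages over times. The count was 0 of 7 in bPEI (2.45% of all tested genes called), in PEG (3.94%) and in citrate (11.4%), where 1 of the 21 tests had an unadjusted p under 0.05 and edgeR also called 0. Without both libraries that stood apart 6 passed. These were F12 in all 3 coatings, PROC in PEG (0.33, adjusted p = 0.0166) and citrate (0.30, adjusted p = 0.0211) and SERPINC1 in citrate (-0.34, adjusted p = 0.036). In the test on all libraries the unadjusted p under 0.05 was that of PLG in bPEI, at 1.23 (SE 0.59, adjusted p = 0.316). PLG in bPEI held 9.68, 11.4 and 15.0 normalized reads at 12 h against 4.64, 0 and 5.25 in NoNP, and 39.0 and 33.6 at 24 h against 11.2 and 6.52. The bPEI libraries lay above the NoNP libraries at both times, with differences of 1.97 (SE 0.94, adjusted p = 1) and 1.96 (SE 1.15, adjusted p = 0.386). Without NoNP replicate B the latter was 1.605 (adjusted p = 0.654).

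PROS1 and PROC each had 1 unadjusted p under 0.05, both in bPEI. PROS1 in bPEI at 24 h held 88.3 and 82.4 normalized reads against 69.0 and 17.4, a difference of 1.27 (SE 0.55, adjusted p = 0.2). Without NoNP replicate B it was 0.30 and without replicate A 2.23 (adjusted p = 0.00949). PROC in bPEI at 6 h held 3893, 5939 and 3849 against 3409, 3057 and 3458, a difference of 0.43 (SE 0.20, adjusted p = 0.237), and the highest value came from replicate B, one of the libraries that stood apart. Without it the difference was 0.23 (adjusted p = 0.804). PROC varied little otherwise, between -0.01 and 0.33 in the other 8 comparisons. KNG1 in bPEI at 24 h was -2.77 without NoNP replicate B (adjusted p = 0.197) and -0.49 without replicate A (adjusted p = 0.811). With all libraries KNG1 ran from -1.63 (bPEI at 24 h, SE 0.96, adjusted p = 0.383) to 0.75 (bPEI at 12 h, SE 0.78, adjusted p = 1) and F5 from -1.06 (PEG at 12 h, SE 0.72, adjusted p = 0.683) to 1.42 (bPEI at 24 h, SE 0.88, adjusted p = 0.414).

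**Figure D3:**
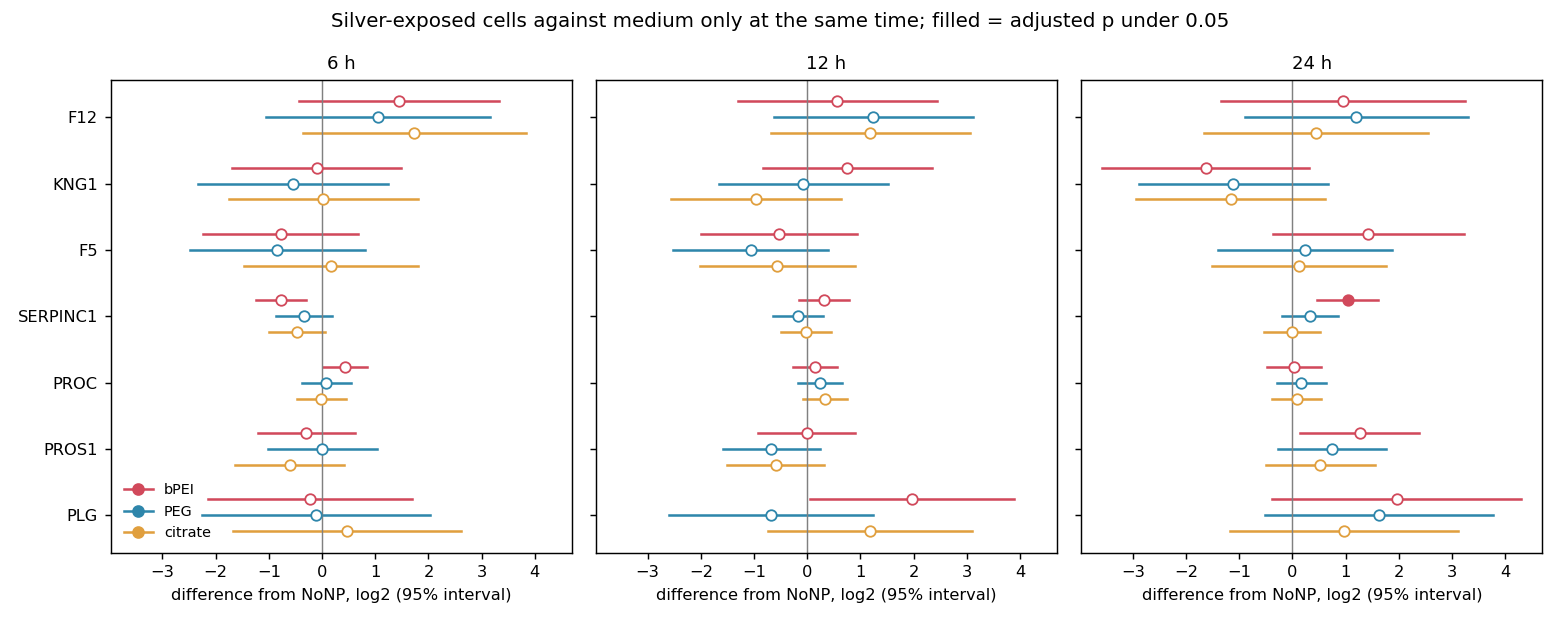
Differences from NoNP at the same time in log2(normalized reads + 1) for the 7 tested genes, with 95% intervals from limma, by coating. Filled points have an adjusted p under 0.05, and only SERPINC1 in bPEI at 24 h is filled, at 1.04.

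The third question was whether the coatings differed from each other and whether time changed their effect. In F tests among bPEI, PEG and citrate 0 of 7 genes passed at 6 h (0.107% of all tested genes called), 12 h (0.418%) and 24 h (0.150%). Of these 21 tests 2 had an unadjusted p under 0.05, and edgeR called 0. The lowest adjusted p was that of SERPINC1 at 24 h (0.198), where 799 and 974 normalized reads in bPEI stood above 499, 469.9 and 668 in PEG and 431, 427 and 422 in citrate. Without both libraries that stood apart its adjusted p was 0.0116, and without bPEI replicate A or B it was 0.425 or 0.819. PLG at 12 h was the other, with an adjusted p of 0.31. The F test of the interaction of exposure and time passed in 0 of 7 genes (0.665% of all tested genes), with 1 at an unadjusted p under 0.05 and 0 called by edgeR. That gene was SERPINC1 (adjusted p = 0.0779), and its adjusted p was 0.00116 without NoNP replicate A at 24 h.

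Other genes of the pathway were counted from lists. Of 7 other coagulation factors tested, 5 fell and none rose from 6 to 24 h in the mean over exposures, with a list median of -2.14. Over all tested genes 39.0% were called in this comparison, 18.7% higher and 20.4% lower, and the counts of the lists stand beside these shares. The fibrinogen chains FGG and FGB, which are the substance of the clot, fell by 2.14 (SE 0.09, adjusted p = 4.11e-19) and 2.36 (SE 0.10, adjusted p = 9.71e-19). Of 10 other inhibitors and protein C pathway genes 4 rose and none fell, and of 8 other fibrinolysis genes 5 rose and 1 fell. The 4 of 10 are close to the share called over all genes. SERPINE2, an inhibitor of thrombin and plasminogen activators counted with the latter list, rose by 1.79 from 6 to 24 h (SE 0.11, adjusted p = 1.86e-14). ANXA2, a surface receptor for plasminogen and its activator, fell by 1.12 from 6 to 12 h (SE 0.12, adjusted p = 7.41e-09) and rose by 1.99 from 12 to 24 h (SE 0.12, adjusted p = 3.35e-14), which left a rise of 0.87 from 6 to 24 h (SE 0.13, adjusted p = 1.64e-06). Of 6 genes of the vitamin K cycle, processing and secretion 2 rose and 1 fell, and of 12 hepatocyte transcription factors 2 rose and 6 fell. Of the list of thrombin receptors and their relatives only F2RL1 was tested, the gene of a protease-activated receptor cut by trypsin-like proteases and not a classical thrombin receptor, and it rose. The plot of the pathway from 6 to 24 h places the 7 genes beside these lists.

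**Figure D4:**
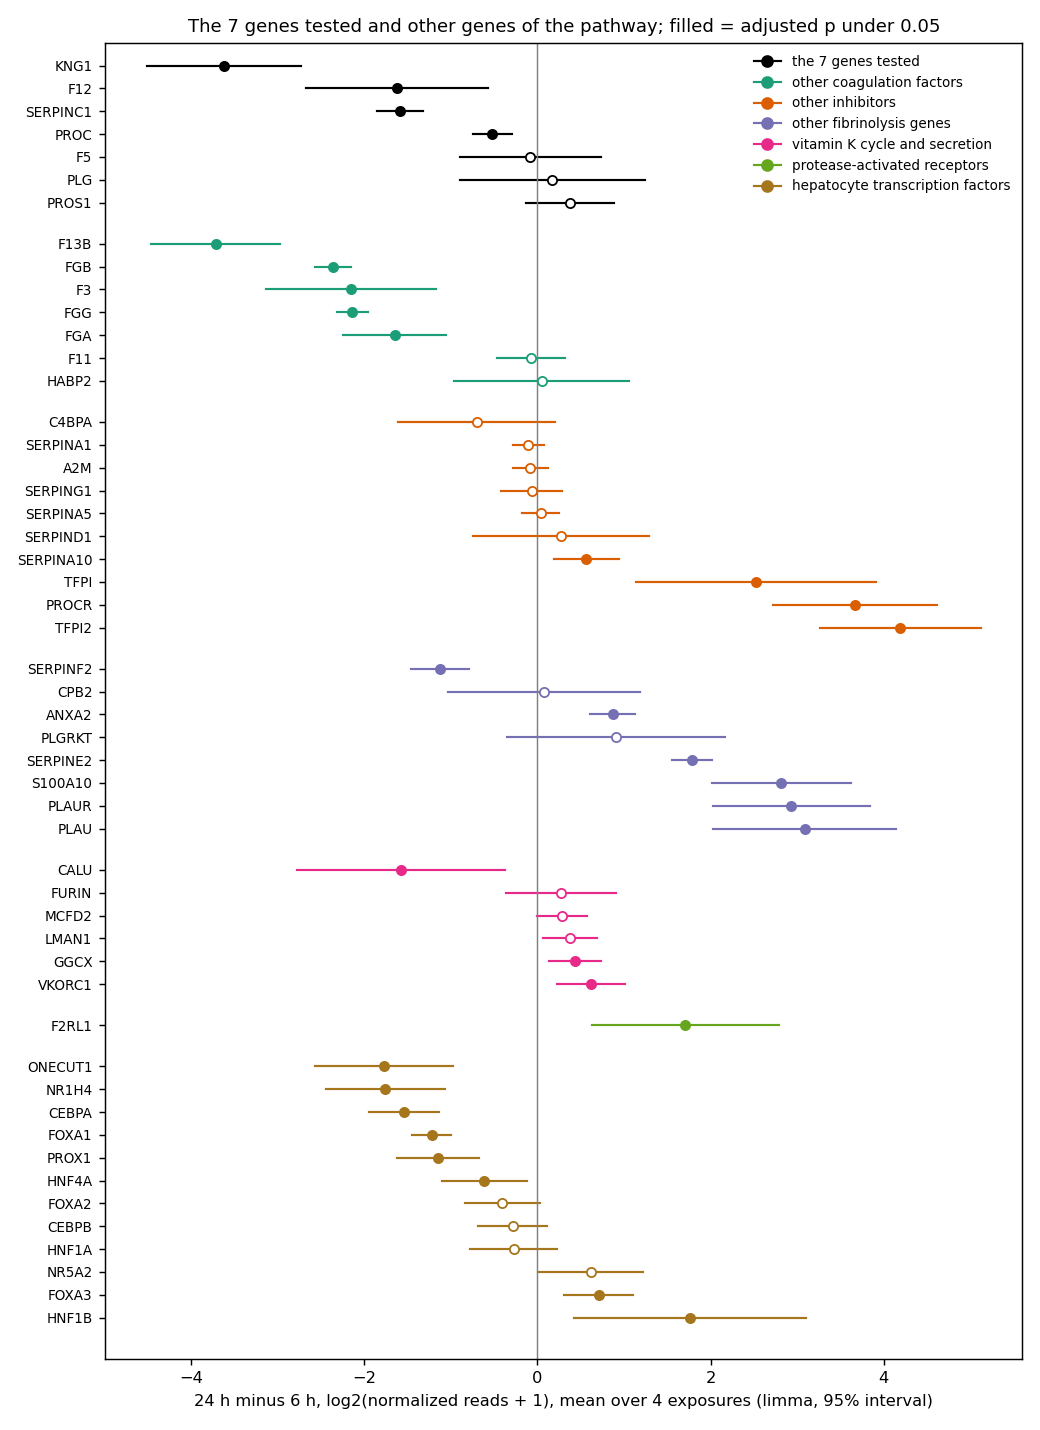
Difference from 6 to 24 h in log2(normalized reads + 1), averaged over the 4 exposures, for the 7 tested genes and the other tested genes of the pathway, with 95% intervals from limma. Filled points have an adjusted p under 0.05. KNG1 (-3.62) is the lowest of the 7, the fibrinogen genes FGB (-2.36) and FGG (-2.14) also lie to the left, and 5 of the 6 filled fibrinolysis genes lie to the right.

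Against NoNP at 24 h, SERPINC1 in bPEI was called beside 4 of 7 other coagulation factors, all higher. In PEG 3 of these 7 and in citrate 4 of 7 were called, all higher. None of F12, KNG1, F5, SERPINC1, PROC, PROS1 and PLG was called in PEG or citrate. The calls in PEG were the 3 fibrinogen chains FGA, FGB and FGG. In bPEI and citrate they were these chains and F13B, a subunit of the factor that crosslinks fibrin. F13B was higher by 3.24 in bPEI (SE 0.80, adjusted p = 0.0142) and by 3.19 in citrate (SE 0.73, adjusted p = 0.00953). Over all tested genes 4.55%, 2.83% and 4.20% were called in bPEI, PEG and citrate, and 3.05%, 2.12% and 2.80% were called higher. Without NoNP replicate B the counts were 3, 3 and 3 of 7, and without replicate A 6, 5 and 6. In bPEI FGG was higher by 2.60 (SE 0.19, adjusted p = 5.41e-11), FGB by 2.65 (SE 0.22, adjusted p = 8.85e-10) and FGA, the third fibrinogen chain, by 4.06 (SE 0.63, adjusted p = 0.000429). Without NoNP replicate B these were 2.63, 2.42 and 3.37, all still called. FGG was also higher in PEG (1.24) and citrate (1.27), and so was FGB (1.46 and 1.35), all called. ANXA2 was higher by 1.30 in PEG (SE 0.26, adjusted p = 0.00347) and by 1.16 in citrate (SE 0.26, adjusted p = 0.00732). Without NoNP replicate A the citrate value was 0.83 (adjusted p = 0.0857). Of the other 10 inhibitors none passed at 24 h in bPEI or PEG. In citrate 1 passed, the protease inhibitor gene A2M, at -0.74 (SE 0.20, adjusted p = 0.0239). At 12 h 4 of the 10 passed in citrate, 3 lower and 1 higher, where 6.12% of all tested genes were called. FGG and FGB also passed the F test among coatings at 24 h (adjusted p = 4.21e-05 and 0.00129) and the interaction (2.04e-06 and 1.79e-05), in which the 7 genes had no call.

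In the unexposed cells FGG and FGB had the smallest p of the pathway lists. Their differences from 6 to 24 h were -3.57 in FGG (SE 0.18, adjusted p = 2.04e-16) and -3.82 in FGB (SE 0.20, adjusted p = 1.18e-15). F13B, the carrier subunit of the factor that crosslinks fibrin, fell by 5.98 over that interval (SE 0.73, adjusted p = 1.72e-07). SERPINE2 rose by 1.64 from 6 to 24 h (SE 0.23, adjusted p = 1.78e-06). Averaged over times, bPEI was above NoNP in FGG by 0.97 (SE 0.10, adjusted p = 1.88e-07) and in FGB by 1.02 (SE 0.11, adjusted p = 1e-06). A2M, a broad protease inhibitor, was below NoNP, with differences of -0.70 in citrate (SE 0.11, adjusted p = 0.000123) and -0.53 in PEG (SE 0.11, adjusted p = 0.00424). ANXA2 was above NoNP in all 3 coatings, by 0.81 in citrate (SE 0.14, adjusted p = 0.000383), 0.72 in PEG (SE 0.14, adjusted p = 0.00325) and 0.69 in bPEI (SE 0.14, adjusted p = 0.00519). FGA also passed the interaction test (adjusted p = 0.0291), but not without NoNP replicate B at 24 h (adjusted p = 0.154). The values of KNG1, SERPINC1 and PLG in the same averages were -0.33, 0.19 and 1.23 in bPEI and -0.70, -0.17 and 0.87 in citrate, with no call.

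The 7 tested genes did not move as one. Over the 12 group means of log2(normalized reads + 1), SERPINC1 had a Pearson r of 0.86 with the mean profile of the other 6, PROC 0.76, F12 0.62, F5 0.43, PLG 0.30, KNG1 0.28 and PROS1 0.01. Between pairs, SERPINC1 and KNG1 had 0.78, F12 and PROC 0.73, and PLG and F5 0.68, while PROS1 and KNG1 had -0.46. The points share libraries and times, so these are descriptions. The centred mean profile of the 7 genes was highest in citrate at 6 h (0.86), followed by NoNP (0.67), bPEI (0.63) and PEG (0.57) at 6 h, and lowest in PEG at 12 h (-0.64) and NoNP at 24 h (-0.63). The 5 tested genes outside the list with the highest r with that profile over the 12 means were SLC51A (0.961), AHSG (0.959), FDFT1 (0.959), SMYD3 (0.957) and SERPINF2 (0.956). These 5 were picked for their r, so its height is no support. SERPINF2 is the gene of the plasmin inhibitor.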

How the data were processed

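TempO-Seq libraries of HepG2 cells in 12 groups of exposure and time were analysed from 1 table of 32 libraries. The values are a signal, which the deposited table calls normalized counts. In every library 100% of values were whole multiples, within 0.01 reads, of what 1 read is worth, so reads were recovered by division. The aligner, build, filters and probe-to-gene steps are stated by neither labels nor table. Groups came from the sample labels.

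A gene was tested if its mean over the 32 libraries reached 5, which left 9324 genes and dropped 3809. limma 3.58.1 in R 4.3.3, with trend and robust settings, was fitted to log2(value + 1) with 1 mean per group and 20 residual degrees of freedom. Each comparison's p-values received a Benjamini-Hochberg adjustment over the 9324 genes, and 0.05 was the limit for a call. F tests compared the coatings at 1 time and the interaction. edgeR 4.0.16 on the recovered reads was an alternative. The model scripts were tested on simulated data. Intervals and limits cover counting error or library spread only. All listed genes are named. Of other pathway genes, up to 4 with the smallest p among those called are named in each family of comparisons. The members and lists were chosen with earlier results of these data known. Alternatives were another pseudocount, 2 other filters, equal library totals, quantile normalization, voom weights, variance weights per group, the replicate letter as a block, only the groups compared and libraries left out. A gene of the pathway lists is not reported here and was left out of the counts.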

Additional observations from a re-analysis of the deposited data

Results flagged for a closer look

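SERPINC1 in bPEI lay on opposite sides of NoNP at different times. At 6 h its mean was 1273 normalized reads against 2166 in NoNP, with all 3 bPEI libraries lower, a difference that did not pass in limma (adjusted p = 0.0647). At 24 h it was 886.7 against 458.7, with both bPEI libraries higher, a log2 difference of 1.04 (adjusted p = 0.0278) that was 0.51 without NoNP replicate B (adjusted p = 0.448). This contrast was not tested on its own. The F test over all interactions of exposure and time gave SERPINC1 an adjusted p of 0.0779 in limma.

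KNG1 at 12 h had a mean of 26.57 normalized reads in bPEI and 7.521 in citrate against 15.3 in NoNP. The libraries overlapped those of NoNP in neither case. KNG1 and SERPINC1 were flagged here by that lack of overlap in opposite directions, so it is no support. Its share over all genes was not counted. Neither KNG1 difference passed in limma, at 0.75 in bPEI and -0.96 in citrate (adjusted p = 0.511 for citrate). The difference between bPEI and citrate was not tested as a pair. The F test among the 3 coatings at 12 h gave an adjusted p of 0.524.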

How the results depend on the processing

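Of 19 calls, 13 held in every alternative run and 6 were lost in some, out of up to 43 alternatives per result. The call against NoNP at the same time, 1 of 63, became 0 with 1 variance weight per group and 0 with only the groups compared, 2 without both outlying libraries, and 0 to 3 when 1 library was left out. With voom weights the count was also 1, but that gene was lower. For the averages over times the count of 0 became 6 without both outlying libraries and ranged from 0 to 3 when 1 library was left out. Among the coatings it became 1 with variance weights and 1 without both outlying libraries. For the interaction it ranged from 0 to 1. PROC in NoNP from 6 to 24 h was -0.46, reached 0.040 without NoNP replicate A at 24 h and -0.96 without replicate B. The causes were not tested.

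The calls over all genes moved more. Those against NoNP went from 1936 to 5110 and those of the averages from 1658 to 5191 without both outlying libraries. Those of the averages were 641 with variance weights. Calls among coatings went from 63 to 1026 and for the interaction from 62 to 14 with variance weights. The interaction had 952 and the NoNP times, with 4536 calls, had 6450 without NoNP replicate A at 24 h, and the NoNP times had 2869 with only the groups compared. Equal library totals moved the median of all genes by up to 0.21 in citrate at 24 h. The replicate letter as a replicate block left the counts at 1, 0, 0, 5, 13 and 0. After group means were removed, libraries sharing a letter had a median correlation of 0.0057 over 156 pairs. The median was -0.0033 over 312 pairs with other letters. Correlations exceeded 0.1 in 18 of the 156 and 20 of the 312 pairs. Whether some libraries of a letter are linked was not tested. F5, F12 and PLG were not tested at a mean of at least 20. Low reads limit KNG1, F12, PLG, F5 and F7.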
